A study of Danio rerio with 2 samples.

Results

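The long arm of chromosome 4 was examined in ATAC-seq peak lists from 2 zebrafish melanoma cell lines, zcrest 1 and zcrest 2. Its members are all called regions of accessible chromatin (peaks) on chromosome 4 whose summit, the position with most reads, lies beyond 25 Mb in the genome build Zv9. They numbered 941 of 63335 peaks in zcrest 1 and 922 of 53132 in zcrest 2. Chromosome 4 up to 25 Mb, the comparison, held 731 and 531 peaks. Members were chosen by position alone and not by any measured value.

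ATAC-seq uses a transposase to cut and tag DNA that is not packed away, so that reads pile up over open chromatin. Both lines are labelled with a genotype of p53, BRAF and Na (an abbreviation not expanded here), the reporter crestin:EGFP, and MiniCoopR alone, meaning the vector without an added gene. Crestin marks the neural crest, the embryonic source of melanocytes, and MiniCoopR restores melanocytes through mitfa. Both lines were past 20 passages, and each gave 1 library from 50000 cells. There are no replicates, so the values compare 2 libraries, no difference was tested, and intervals cover counting error only. The intervals treat peaks as independent, which neighbouring peaks need not be, so intervals that lie apart or overlap are no test. Total read numbers are not stated by the labels or files used. The genome-wide background, which scales with them, was 1.57 reads in zcrest 1 and 2.01 in zcrest 2.

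The long arm of zebrafish chromosome 4 is known as an unusual stretch of the genome. It replicates late, is largely heterochromatic, and is rich in repeats, 5S ribosomal RNA genes and small nuclear RNA genes, with few ordinary protein-coding genes apart from large families of NLR and zinc-finger genes. In wild strains one end of it carries a sex-linked region. Heterochromatin is compact and usually little accessible. In repeats a short read can match several places, and the treatment of such reads is not stated by the labels or files used. No annotation or sequence of Zv9 was used, so no gene, repeat or sequence is assigned to any peak below.

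The long arm was sparsely covered with peaks, and the median window held the same number in both lines. A window of 1 Mb on the arm held a median of 25 peaks in zcrest 1 (range 9 to 44, 37 windows) and a median of 25 in zcrest 2 (range 11 to 35). The median window on the other chromosomes held 46 and 39. Of those 1282 windows, 4.29% in zcrest 1 and 18.1% in zcrest 2 held no more than the arm's median. The coefficient of variation between windows was 29.5% and 23.8% on the arm, against 26.5% and 40.0% on chromosome 4 up to 25 Mb and 31.8% and 37.7% on the other chromosomes. Relative to their mean, the windows of the arm thus varied more than those up to 25 Mb in zcrest 1, and less in zcrest 2. The standard deviation was lower on the arm in both lines, at 7.45 and 5.89 peaks against 7.75 and 8.51.

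Low density was not a property of the long arm alone. Chromosome 4 up to 25 Mb had a median of 28 peaks per window in zcrest 1 (range 11 to 43, 25 windows) and 20 in zcrest 2 (range 9 to 46). The long arm was therefore the sparser part in zcrest 1 and the denser part in zcrest 2. Over their whole extent, taken to the last peak of either list, the long arm held 25.4 and 24.9 peaks per Mb, and chromosome 4 up to 25 Mb held 29.2 and 21.2. With chromosome 4 counted as 2 parts there are 26 units, and the long arm was the lowest of the 26 in zcrest 1 and the fourth lowest in zcrest 2. The 2 lower chromosomes other than chromosome 4 up to 25 Mb were 15, with 22.7 peaks per Mb in zcrest 2, and 16, with 22.8.

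The balance between the lines also differed between the parts of the chromosome. On the long arm zcrest 1 had more peaks in 19 windows, zcrest 2 in 15, and 3 were equal, with 1.02 times as many peaks in zcrest 1 over all of them. From 0 to 11 Mb, zcrest 1 had more peaks in 11 of 11 windows and 2.00 times as many in all. From 11 to 25 Mb the ratio was 1.01. Summed over windows, the peak counts were thus unequal at the start of chromosome 4. They were near equal from 11 to 25 Mb and on the long arm. Single windows still differed both ways, such as 16 to 17 Mb with 26 and 46 peaks and 53 to 54 Mb with 20 and 11. The counts are not scaled to the lists. On the other chromosomes zcrest 1 had 61660 peaks and zcrest 2 had 51676, so equal counts are fewer for zcrest 1 than its list would give. The limit of 11 Mb was chosen after the values were seen.

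**Figure D1:**
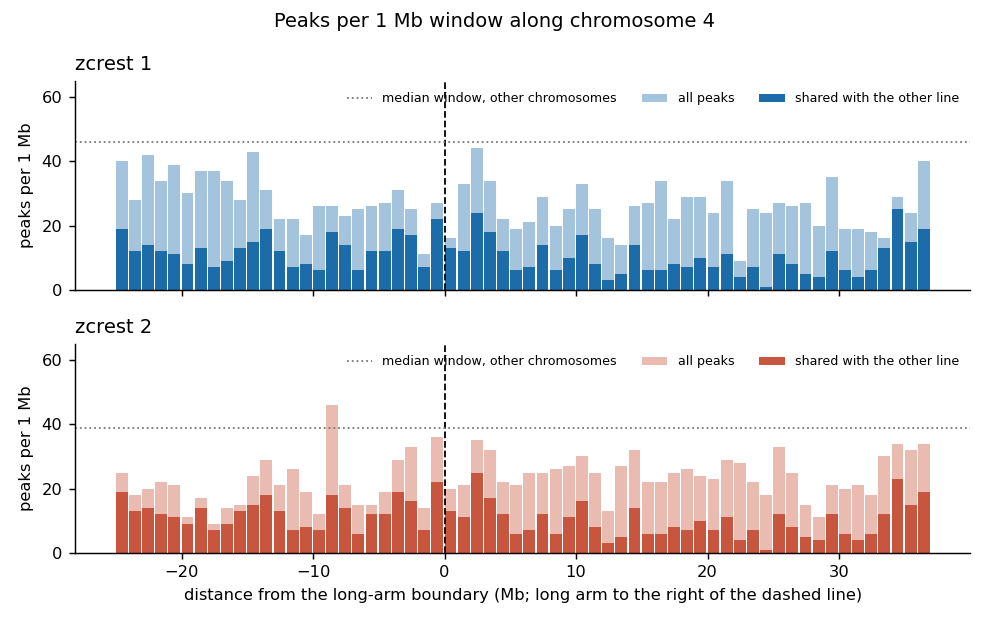
Peaks per 1 Mb window (y axis) against distance from the 25 Mb boundary in Mb (x axis), for zcrest 1 above and zcrest 2 below. Pale bars are all peaks, dark bars those shared with the other line, the dashed line is the boundary and the dotted line the median window of the other chromosomes (46 and 39). Bars on the long arm stay below the dotted line in zcrest 2 and reach at most 44 in zcrest 1, and their dark part is short in the middle of the arm.

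With windows ordered by the sum of both lines, the fullest of the arm lay near its start and at its end. The window from 27 to 28 Mb held 44 peaks in zcrest 1 and 35 in zcrest 2. The last complete window, 61 to 62 Mb, held 40 and 34, and the window from 28 to 29 Mb held 34 and 32. The emptiest were 37 to 38 Mb with 16 and 13 peaks, 53 to 54 Mb with 20 and 11, and, tied, 25 to 26 Mb with 16 and 20 and 57 to 58 Mb with 18 and 18. The lines differ in this order. In zcrest 1 the window with fewest peaks was 47 to 48 Mb, with 9, where zcrest 2 had 28. That window was named after its values were seen.

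The boundary itself was marked by no long gap. Summits on either side lay farther apart than the arm's median spacing (22.0 kb and 23.4 kb) and nearer than its mean spacing (39.4 kb and 40.2 kb). In zcrest 1 the last peak before the boundary was at chromosome 4, 24999356 to 24999738, with 45 reads at its summit. The first beyond it was at 25037272 to 25037776, with 23. In zcrest 2 these were at 24999364 to 24999925 with 63 reads and at 25037096 to 25037763 with 32. Both were shared between the lines. The last peak on the chromosome was also shared, at 62065630 to 62066071 in zcrest 1 and 62065629 to 62066129 in zcrest 2.

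Some stretches of the arm were empty in one line and occupied in the other. The longest without a peak in zcrest 1 ran from 47655158 to 48101569 (446 kb), where zcrest 2 had 19 peaks. Those 19 were weak, with 8 to 22 reads at the summit and a -log10 q of at most 10.5. The longest in zcrest 2 ran from 26437625 to 26942847 (505 kb), where zcrest 1 had 7 peaks of 10 to 45 reads. These stretches were picked for their length after the values were seen, and reads outside called peaks were not analysed here.

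Peaks on the long arm were narrower than elsewhere. The median width was 338 bp in zcrest 1 (quartiles 241 and 468) and 320 bp in zcrest 2 (240 and 447). On chromosome 4 up to 25 Mb it was 367 and 357 bp, and on the other chromosomes 398 and 389 bp. The long arm had the lowest median width of the 26 units in both lines. Peaks of at most 250 bp made up 28.2% of the arm in each line, against 24.5% on the rest of chromosome 4 in each line and 20.1% and 21.8% on the other chromosomes.

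The narrow width went with low strength. The median -log10 q, the peak caller's measure of certainty, was 6.41 and 6.15 on the arm, 8.32 and 7.39 on the rest of chromosome 4, and 9.12 and 7.90 on the other chromosomes. Within classes of equal strength the gaps in width between the 2 parts of chromosome 4 went both ways. At a -log10 q below 5 the median width was 254 and 262 bp on the arm and 240 and 262 bp on the rest of chromosome 4. From 5 to 10 it was 308 and 307 bp against 292.5 and 312 bp. From 10 to 20 it was 472.5 and 438 bp against 440 and 475 bp, and at 20 or more 544 and 584 bp against 553 and 579 bp. With classes weighted by the arm's own mix of strengths, the mean of the class medians was 343 bp on the arm, 328 bp on the rest of chromosome 4 and 355 bp on the other chromosomes in zcrest 1. In zcrest 2 it was 340, 348 and 364 bp. The order of the 2 parts of chromosome 4 in zcrest 1 therefore turned once strength was taken into account.

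Wide peaks were present on the arm as well. In zcrest 1, 17 of 941 were at least 1000 bp wide (1.81%), against 1 of 731 (0.137%) on the rest of chromosome 4. In zcrest 2 there were 14 of 922 (1.52%) against 4 of 531 (0.753%). On the other chromosomes the shares were 2.00% and 2.67%. The widest peak of the arm was the same in both lines, at 46715729 to 46717819 in zcrest 1 (2091 bp, 66 reads at the summit) and 46716145 to 46717887 in zcrest 2 (1743 bp, 77 reads). In zcrest 1 the next widest lay at 40659032 to 40660538 (1507 bp, 16 reads), with no overlap in zcrest 2, and at 26425469 to 26426890 (1422 bp, 58 reads). The latter was 1402 bp wide in zcrest 2, with 51 reads. In zcrest 2 the next widest lay at 28003546 to 28005193 (1648 bp, 144 reads) and at 35918966 to 35920371 (1406 bp, 93 reads), and the overlapping peaks of zcrest 1 were 944 and 717 bp wide. Of these 5 regions, 4 had a peak in both lines and 1 was called in zcrest 1 alone. For comparison, 62.2% and 84.0% of the arm's peaks with a -log10 q of 20 or more were shared. Some of the 5 stood on a high local background (explained in the next paragraph). In zcrest 1 it was 5.12 times the list median at 46715729, 1.125 times at 40659032 and 2.48 times at 26425469. In zcrest 2 it was 14.6 times at 28003546 and 7.70 times at 35918966.

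The low strength went with a higher background than on the rest of the chromosome, at the same median number of summit reads. The median summit stood on 15 reads in zcrest 1 and 16 in zcrest 2, on both parts of chromosome 4 alike. The local background is the number of reads expected from a window of 10000 bp around the summit, and never less than the genome-wide value. Its median was 1.84 reads on the arm and 1.57 on the rest of chromosome 4 in zcrest 1, and 2.36 and 2.01 in zcrest 2. Only 36.3% and 37.0% of the peaks on the arm lay at the genome-wide minimum, against 64.0% and 65.5% up to 25 Mb. Without the arm's peaks on a background of at least 3 times the list median, its median summit stood on 14 and 16 reads. The other chromosomes had both more reads at the summit (median 19 and 20) and a higher background (2.26 and 2.92), with 21.6% and 19.0% of peaks at the minimum. The window counts a peak's own reads and those of close neighbours.

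The authors' fold enrichment is the ratio of summit reads to local background after 1 read is added to each, which lowers it most where the background is low. It was lower on the arm than on either other part. Its median on the arm was 4.92 in zcrest 1 and 4.65 in zcrest 2. On the rest of chromosome 4 it was 5.83 and 5.31, and on the other chromosomes 5.81 and 5.03. Few peaks of chromosome 4 were among the strongest of their list. Of the 1000 peaks of highest -log10 q, 4 lay on the arm in zcrest 1 (0.40%) and 3 in zcrest 2 (0.30%), although the arm held 1.49% and 1.74% of all peaks. Chromosome 4 up to 25 Mb had 0 of these 1000 in either line, while it held 1.15% and 1.00% of all peaks.

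Strong peaks existed nonetheless, and the strongest of zcrest 1 had fewer reads in zcrest 2. The strongest of the arm in zcrest 1 lay at 43317202 to 43318356, with 141 reads at the summit and a 17.1-fold enrichment, and ranked 15 in that list. In zcrest 2 the same region had 31 reads and a 5.93-fold enrichment and ranked 15455. The strongest in zcrest 2 lay at 55152026 to 55152929 with 87 reads and a rank of 404. It was the next strongest in zcrest 1, also with 87 reads, and ranked 290. Its enrichment was 15.3-fold in zcrest 1 and 12.8-fold in zcrest 2. One leading region thus had many more reads in 1 line, and the other the same number in both. These read numbers are not scaled between the libraries. Each region, here and in the next paragraph, was picked for its strength in 1 line. A lower value in the other line therefore partly follows from the choice.

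The other leading regions lay between 27 and 32 Mb and between 52 and 55 Mb. In zcrest 1 they were at 31990545 to 31991374 (74 reads, 23 in zcrest 2), 53048652 to 53049812 (79 reads, 59 in zcrest 2) and 31622049 to 31622585 (61 reads, 35 in zcrest 2). In zcrest 2 they were at 54214944 to 54215561 (63 reads, 36 in zcrest 1), 54690631 to 54691607 (101 reads, 94 in zcrest 1), 52611954 to 52612651 (65 reads, 14 in zcrest 1) and 27873332 to 27873716 (218 reads, 221 in zcrest 1). All 9 leading regions had an overlapping peak in the other list. They were picked for a high -log10 q, and strong peaks are mostly shared in these lists. At a -log10 q of 20 or more, 62.2% and 84.0% of the arm's peaks were shared. On the other chromosomes it was 83.7% and 95.6%.

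The last of these, at 27873332, belonged to a crowded block. Its 218 reads stood on a local background of 61.5 reads, 21.2 times the median of the list, and its enrichment was 3.50-fold. The values in zcrest 1 were 3.66-fold on a background of 59.7 reads.

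Such crowded blocks stood out near the start of the arm, between 26 and 29 Mb. Summits within 12500 bp of each other were joined into groups. The group of most peaks was the same in both lines: 17 peaks at 27872449 to 27911980 in zcrest 1 and 19 peaks at 27869560 to 27911971 in zcrest 2. Of these, 16 and 17 were shared. The median background there was 39.1 reads in zcrest 1 and 39.7 in zcrest 2, or 17.4 and 13.7 times the median of each list. The summits stood on 57 to 221 reads in zcrest 1 and 67 to 218 in zcrest 2, with enrichments of 1.78-fold to 7.53-fold and 1.85-fold to 7.57-fold. In this block the lines had nearly the same read numbers, although the genome-wide background of zcrest 2 was higher.

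The next groups were also found in both lines. At 26169681 to 26198498 zcrest 1 had 11 peaks, 7 of them shared, on a background 4.93 times the list median, and zcrest 2 had 8 at 26168557 to 26187208 on 5.09 times. At 28001787 to 28017271 zcrest 1 had 9 peaks, 8 of them shared, on 6.81 times the median, and zcrest 2 had 7 at 28001730 to 28016955, all 7 shared, on 11.1 times. The median summit in this block had 56 reads in zcrest 1 and 85 in zcrest 2. A group of 7 peaks at 28167047 to 28194820 tied for the same place in zcrest 2, with 5 peaks of zcrest 1 inside it. The groups were picked for many peaks, and the background counts the reads of neighbouring peaks, so a high value partly follows from the choice.

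A local background of at least 3 times the list median was found at 73 peaks of the arm in zcrest 1 (7.76%) and 55 in zcrest 2 (5.97%). Over all numbered chromosomes 4.15% and 3.3% of peaks reached it. On chromosome 4 up to 25 Mb none did, of 731 and of 531, which allows a share of up to 0.410% and 0.565% when 3 peaks are taken as the limit of a count of 0. Of the 73 and 55, 39 in each line lay between 25 and 29 Mb. These peaks had a median of 57 and 79 reads at the summit, where the others of the arm had 14 and 16. They were shared in 69.9% and 81.8% of cases, the others in 36.6% and 36.8%. Peaks of raised background were thus shared more often than the other peaks of the arm, and they also had more reads.

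The share of peaks with a close neighbour on the arm was higher than on the rest of chromosome 4. Of the summits on the arm, 36.9% in zcrest 1 (95% exact binomial interval 33.8% to 40.0%) and 40.3% in zcrest 2 (37.2% to 43.6%) had another summit of the same list within 5 kb. Over all numbered chromosomes the shares were 40.4% and 37.1%. On the rest of chromosome 4 they were 31.9% (28.5% to 35.4%) and 31.8% (27.9% to 36.0%). The intervals of the arm and the rest overlap in zcrest 1 and lie apart in zcrest 2. Without peaks of raised background the share was 31.9% and 36.6% on the arm, unchanged on the rest of chromosome 4, where there were none, and 38.3% and 35.2% on the other chromosomes. Since the background counts the reads of neighbours, leaving out such peaks lowers this share by construction.

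The difference was also seen at 1 kb. Within that distance, 17.1% (14.8% to 19.7%) and 17.5% (15.1% to 20.1%) of the arm's summits had a neighbour, against 11.5% (9.27% to 14.0%) and 12.4% (9.74% to 15.5%) on the rest of chromosome 4. On the other chromosomes 13.5% and 14.1% did. These summits are part of those with a neighbour within 5 kb. The share at 1 kb was not computed without peaks of raised background. Within 12500 bp the shares in zcrest 1 were 58.4% on both parts, and in zcrest 2 they were 58.9% and 54.4%. The other chromosomes, which are denser, had 73.2% and 68.9%. The median distance to the next summit along the arm was 22.0 kb and 23.4 kb, or 0.558 and 0.582 of the mean distance. On the rest of chromosome 4 this fraction was 0.530 and 0.513, and on the other chromosomes 0.601 and 0.576.

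**Figure D2:**
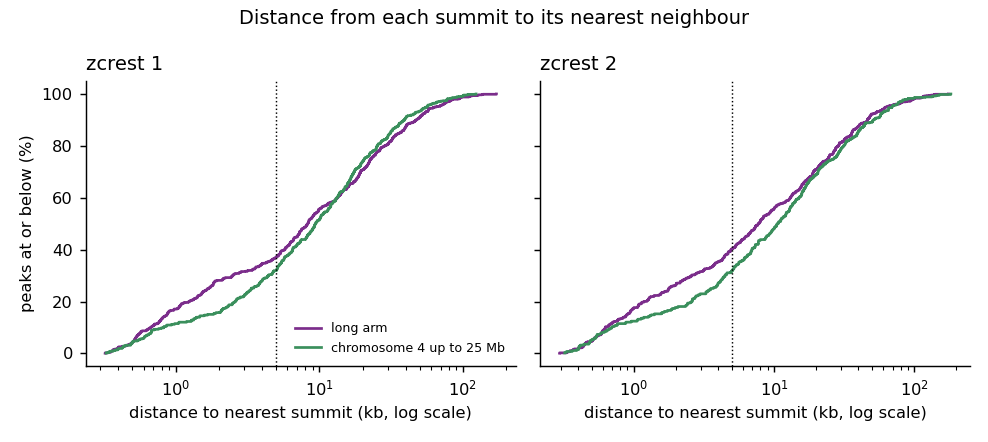
Share of peaks in percent (y axis) whose nearest other summit in the same list lies at or below a given distance in kb (x axis, log scale), for the long arm (purple) and chromosome 4 up to 25 Mb (green), with 5 kb as a dotted line. At 5 kb the arm stands at 36.9% and 40.3% and the rest of the chromosome at 31.9% and 31.8%, and in zcrest 1 the curves meet near 12500 bp, at 58.4%.

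Large groups were few on either part. Groups of at least 5 peaks held 11.8% and 9.65% of the arm's peaks, 15.2% and 7.16% of those up to 25 Mb, and 21.7% and 16.7% of those on the other chromosomes. Peaks with no other within 12500 bp made up 41.6% and 41.1% of the arm. Up to 25 Mb they made up 41.6% and 45.6%, and on the other chromosomes 26.8% and 31.1%. Of the groups of at least 3 peaks, 20 of 68 in zcrest 1 (29.4%, interval 19.0% to 41.7%) and 20 of 57 in zcrest 2 (35.1%, 22.9% to 48.9%) overlapped such a group of the other line. On the other chromosomes 47.5% and 61.3% did. On chromosome 4 up to 25 Mb it was 25.4% and 39.5%, with intervals that overlap those of the arm.

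Of the 26 units, the long arm was the one in which the lines shared the smallest fraction of their peaks. Of the arm's peaks, 369 of 941 in zcrest 1 overlapped a peak of zcrest 2 by at least 1 bp (39.2%, interval 36.1% to 42.4%). In zcrest 2, 364 of 922 overlapped a peak of zcrest 1 (39.5%, 36.3% to 42.7%). Over all numbered chromosomes the shares were 54.7% and 64.9%. On chromosome 4 up to 25 Mb they were 42.7% (39.1% to 46.4%) and 59.3% (55.0% to 63.5%). In zcrest 2 these intervals lie apart, and in zcrest 1 they overlap. The shares up to 25 Mb, 312 of 731 and 315 of 531 peaks, count the same overlaps over unlike peak numbers.

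The chromosomes next to the arm in each line were high in the other. Both shares of a chromosome count the same overlaps, so the line with more peaks there has the lower share. Chromosome 16 held 2735 and 1340 peaks, chromosome 12 held 1824 and 2364, and the arm 941 and 922. Chromosome 16, next to the arm in zcrest 1 with 39.8%, had 81.5% in zcrest 2, the highest of the 26 units. Chromosome 12, next to the arm in zcrest 2 with 50.8%, had 68.0% in zcrest 1, again the highest. The long arm was lowest in both lines, and these are not 2 separate observations. Chromosome 7, at 46.4% and 63.6%, and chromosome 4 up to 25 Mb also lay below the shares over all numbered chromosomes in both lines. The mean of the 2 shares was 39.3% on the arm and 51.0% on chromosome 4 up to 25 Mb, the next lowest. In zcrest 1 the gap to chromosome 16 was within the arm's counting interval, and in zcrest 2 the gap to chromosome 12 was not.

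**Figure D3:**
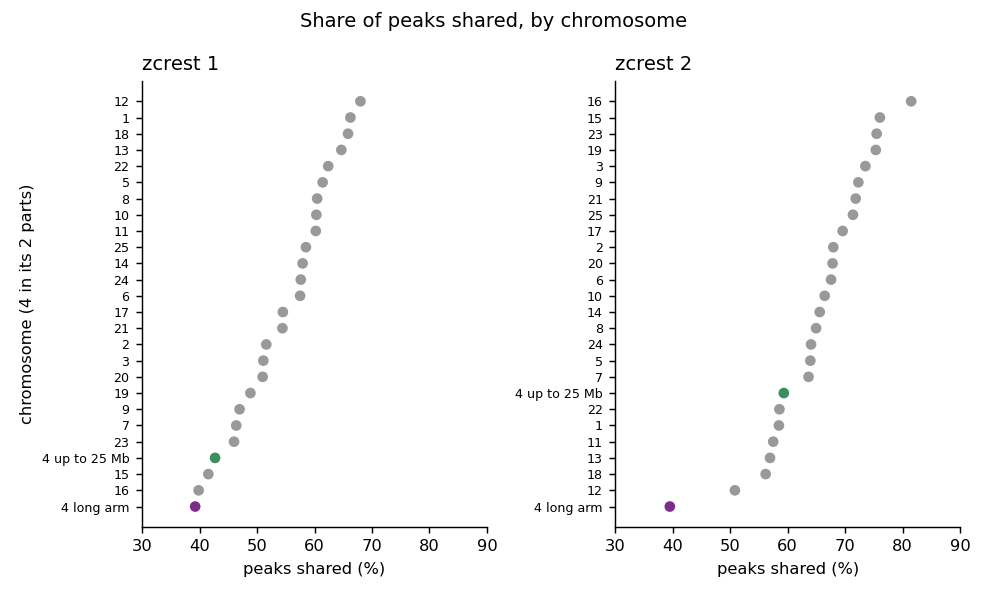
Share of peaks that overlap a peak of the other line in percent (x axis, starting at 30) for each chromosome (y axis, in ascending order), with the long arm of chromosome 4 in purple and chromosome 4 up to 25 Mb in green. The long arm is lowest in both panels, at 39.2% and 39.5%, while the orders of the other chromosomes differ between the lines.

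Weak peaks are shared less in these lists and made up more of the arm (36.2% and 34.6% below a -log10 q of 5, against 21.5% and 22.4% up to 25 Mb), so sharing was compared within classes of strength. In zcrest 2 the arm was lower than chromosome 4 up to 25 Mb in every class. At a -log10 q below 5, 21.0% of its peaks were shared (16.7% to 25.9%) against 37.8% (29.1% to 47.2%). From 5 to 10 it was 35.0% (30.1% to 40.3%) against 52.4% (45.7% to 58.9%). From 10 to 20 it was 62.0% (54.3% to 69.3%) against 78.5% (70.1% to 85.5%). At 20 or more it was 84.0% (74.1% to 91.2%) against 91.4% (81.0% to 97.1%), and these last intervals overlap.

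In zcrest 1 the classes went different ways. Below 10 the arm was shared more than chromosome 4 up to 25 Mb, at 27.0% against 19.7% and 40.0% against 34.7%. From 10 to 20 and at 20 or more it was shared less, at 48.8% against 57.1% and 62.2% against 70.3%. The intervals overlap in all 4 classes. With the arm's mix of strengths, chromosome 4 up to 25 Mb would stand at 37.1% in zcrest 1 and 55.6% in zcrest 2. With strength held equal, the difference between the parts of chromosome 4 therefore turned in zcrest 1 and had the same direction in zcrest 2. Without regard to strength, sharing up to 25 Mb was uneven. From 0 to 5 and 5 to 10 Mb, where zcrest 1 had more peaks, 37.2% and 30.1% of its peaks were shared. In zcrest 2 it was 65.1% and 78.8%. In the stretches of 5 Mb from 10 to 25 Mb the shares ran from 44.4% to 63.6% in zcrest 1 and from 51.3% to 58.0% in zcrest 2. These lie above the 39.2% and 39.5% of the whole arm, but in zcrest 1 the intervals from 10 to 15 and 15 to 20 Mb include 39.2%. Single stretches of the arm reached 54.9% in zcrest 1 and 60% in zcrest 2.

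Against the other chromosomes the arm was lower in all 4 classes in both lines. In the class of 20 or more they stood at 83.7% (83.0% to 84.3%) in zcrest 1 and 95.6% (95.2% to 96.0%) in zcrest 2, above the upper end of the arm's intervals. Below 5 in zcrest 1, at 28.7%, they lay within the arm's interval of 22.3% to 32.0%. With the arm's mix of strengths they would stand at 47.5% and 59.4%.

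**Figure D4:**
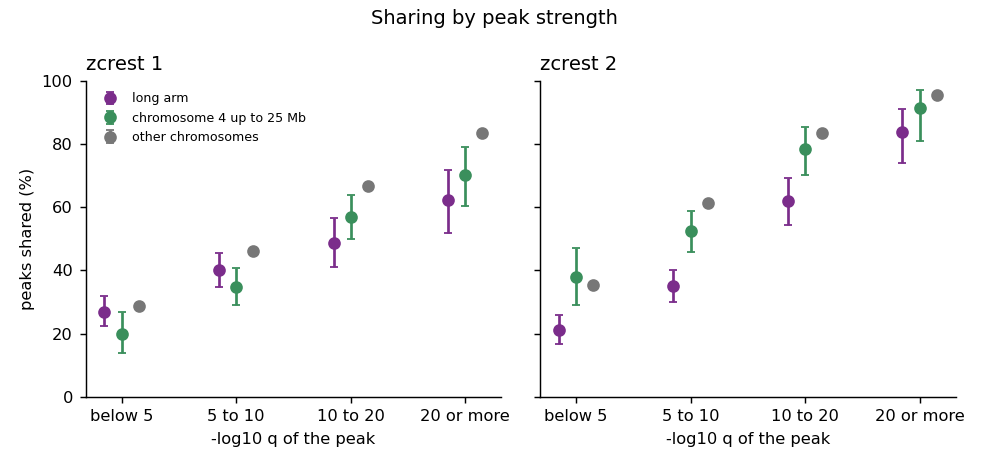
Share of peaks shared with the other line in percent (y axis) by class of -log10 q (x axis), for the long arm (purple), chromosome 4 up to 25 Mb (green) and the other chromosomes (grey). Bars are 95% exact binomial intervals; in zcrest 2 the arm is lowest in every class, from 21.0% to 84.0%.

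Sharing was also compared at equal density. Only windows of 1 Mb with 20 to 30 peaks in each line were taken, a range chosen after the values were seen. In the 13 such windows of the arm, 34.0% (28.8% to 39.4%) of the peaks of zcrest 1 and 34.4% (29.2% to 39.9%) of those of zcrest 2 were shared. In the 43 such windows on the other chromosomes it was 54.1% (51.2% to 57.0%) and 57.9% (54.9% to 60.9%). Only 3 windows up to 25 Mb qualified, with 49.3% (36.8% to 61.8%) and 50.0% (37.6% to 62.4%). At equal density the arm thus stayed below the other chromosomes in both lines, while the interval of the 3 windows overlaps that of the arm. Both lines count the same overlaps, so these are not 2 separate observations. Strength was not matched in these windows. Of all peaks of the arm, 36.2% and 34.6% were below a -log10 q of 5, against 24.2% and 28.1% on the other chromosomes.

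Sharing was lowest in the middle of the arm and higher at its ends. From 25 to 30 Mb, 53.0% of the peaks of zcrest 1 and 60% of those of zcrest 2 were shared. From 40 to 45 Mb it was 26.2% (19.2% to 34.3%) and 31.1% (22.9% to 40.2%), and from 45 to 50 Mb 25.9% (18.2% to 34.8%) and 25% (17.5% to 33.7%). From 50 to 55 Mb it was 29.6% and 39.0%. Beyond 60 Mb it was 54.9% (42.7% to 66.8%) and 52.7% (40.7% to 64.4%). The intervals of the stretch from 45 to 50 Mb lie below those of both ends of the arm in both lines. Both lines count the same overlaps, so these are not 2 separate observations, and neighbouring peaks need not be independent.

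Single windows ranged wider. From 49 to 50 Mb, 1 of 24 peaks of zcrest 1 and 1 of 18 of zcrest 2 were shared. From 59 to 60 Mb, 25 of 29 and 23 of 34 were. The last 5 Mb before the boundary, from 20 to 25 Mb, had 63.6% and 58.0%, against 53.0% and 60% in the first 5 Mb of the arm. That first stretch holds the crowded blocks. Without peaks of raised background it had 42.7% (33.3% to 52.5%) in zcrest 1 and 50.5% (39.9% to 61.2%) in zcrest 2, while the share before the boundary did not move, as no peak there was left out. The interval of zcrest 1 then lies below that before the boundary (54.4% to 72.2%) and overlaps that from 45 to 50 Mb (17.6% to 34.2%). In zcrest 2 it overlaps the one before the boundary (49.1% to 66.6%). These windows were named after their values were seen.

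**Figure D5:**
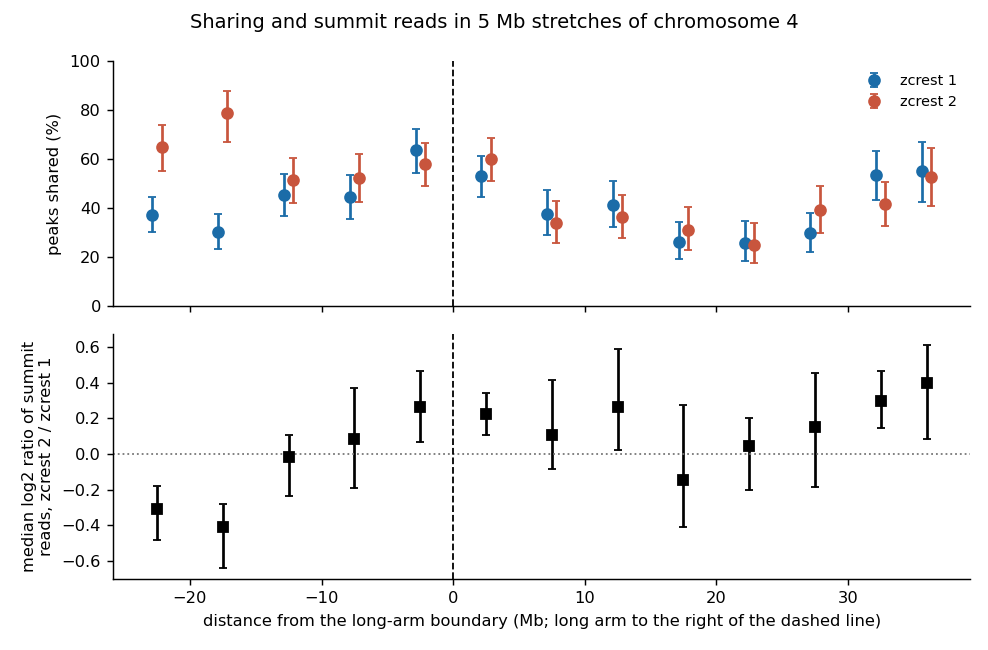
Upper panel, share of peaks shared in percent (y axis) in stretches of 5 Mb against distance from the 25 Mb boundary in Mb (x axis), for zcrest 1 (blue) and zcrest 2 (red) with 95% exact binomial intervals. Lower panel, median log2 ratio of summit reads, zcrest 2 over zcrest 1, at matched peaks, centred on the genome, with the 95% binomial interval of the median. Sharing falls to 25.9% and 25% in the middle of the arm, and the log2 ratio runs from -0.15 to 0.40 on the arm and down to -0.41 before the boundary.

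Most peaks of the arm had no counterpart nearby. In zcrest 1, 521 peaks (55.4%, interval 52.1% to 58.6%) lay more than 1 kb from any peak of zcrest 2, and in zcrest 2, 497 (53.9%, 50.6% to 57.2%) from any of zcrest 1. Over all numbered chromosomes 41.6% and 30.8% did. Up to 25 Mb it was 53.8% (50.1% to 57.4%) and 35.2% (31.2% to 39.4%). The median gap to the nearest peak of the other line was 19.6 kb and 18.7 kb. Their summits had a median of 13 and 14 reads, where shared peaks of the arm had 17 and 21. Reads outside called peaks were not analysed, so a missing counterpart does not show closed chromatin there. The part played by read depth was not tested.

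A few of these were strong. In zcrest 1 they were led by peaks at 33059848 to 33060752 (72 reads, 11.7-fold), 35286036 to 35286592 (55 reads, 16.2-fold) and 54937532 to 54938297 (66 reads, -log10 q of 49.7). The nearest peaks of zcrest 2 lay 22.3, 45.9 and 43.7 kb away. In zcrest 2 they were led by peaks at 44778169 to 44778761 (64 reads, 7.19-fold), 50925861 to 50926353 (36 reads, 12.3-fold) and 58170697 to 58171208 (35 reads, 11.2-fold), with 24.6, 10.7 and 61.8 kb to the nearest peak of zcrest 1. At a -log10 q of 20 or more, 37 of 98 peaks of zcrest 1 overlapped none of zcrest 2, against 13 of 81 the other way. Those are 37.8% and 16.0%, and over all numbered chromosomes 16.6% and 4.53% of such peaks overlapped none, so zcrest 1 had the larger share there as well.

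Where both lines had a peak on the arm, zcrest 2 had somewhat more reads. Among 361 peaks matched one to one by nearest summit, the median log2 ratio of summit reads, zcrest 2 over zcrest 1 and centred on the genome, was 0.21 (95% binomial interval of the median 0.11 to 0.29, quartiles -0.18 and 0.60). That is a ratio of 1.15, and 66.2% of the pairs lay above 0. Up to 25 Mb the log2 ratio was -0.09 (-0.20 to 0.01, 310 pairs). A ratio of at least 2-fold was reached towards zcrest 2 by 38 pairs of the arm (10.5%, 7.56% to 14.2%) and towards zcrest 1 by 17 (4.71%, 2.77% to 7.43%). Over all pairs 6.31% and 9.96% did.

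The ratio was alike just before and just beyond the boundary. From 20 to 25 Mb the log2 ratio was 0.27 (0.06 to 0.47), and from 25 to 30 Mb 0.22 (0.11 to 0.34). From 0 to 5 and 5 to 10 Mb it was -0.31 and -0.41, the stretch where zcrest 1 had more peaks. From 10 to 15 and 15 to 20 Mb it was -0.02 and 0.09, with intervals that include 0. Inside the arm the ratio was lowest from 40 to 45 Mb at -0.15 (-0.41 to 0.28). It was highest beyond 60 Mb at 0.40 (0.08 to 0.61), with overlapping intervals. The intervals from 30 to 35 Mb and of each stretch from 40 to 55 Mb include 0. Shared summits on the arm lay a median of 36 bp apart, against 29 bp up to 25 Mb and 31 bp on the other chromosomes, and 70.1%, 74.8% and 77.3% lay within 100 bp.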

How the data were processed

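The data are 2 deposited peak lists, 1 for each library. MACS2 2.1.0 and the build Zv9 are named by the submitters' processing notes, and the peak names in the files show calling by library. Aligner, duplicate handling and read totals: not given in the sources used here. Every deposited list gives a score, a fold enrichment (a ratio), a -log10 p and a -log10 q per peak, which are the authors' values. Within a list, such values served to describe and rank peaks. The -log10 q also served as a threshold in both lists. Fold enrichment and -log10 p gave the read numbers that are compared between the lines. Some fold enrichments are set side by side between the lines as well. The lowest -log10 q, 1.31 and 1.32, corresponds to a q-value of 0.05 in the authors' lists.

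Summit reads and local background were solved from the deposited fold enrichment and -log10 p, trying pileups up to 800; 100% of peaks fitted within 0.001. Backgrounds above the genome-wide value were whole multiples, within 0.02 reads, of one 200 bp read in 10000 bp, in all but 1 peak (zcrest 2). In simulated data, 100% of 5000 pileups per line were recovered. Positions are counted from 1. Peaks of the 3 mitochondrial regions per list were left out of the other chromosomes. Windows ran from whole Mb, and the incomplete last one was left out. Matched peaks overlapped and had the nearest summits, 33892 pairs in all. Intervals are exact (Clopper-Pearson), or binomial for medians; the limit for a count of 0 is 3 counts of the total. Python 3.11.15, numpy 2.4.6, pandas 2.3.3 and scipy 1.17.1 were used.

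With 1 library per line no test was made. The members, comparisons and alternatives were chosen with earlier results of these data known. Named regions follow a rule: the 5 strongest, 3 strongest of a single line, 3 widest, 3 largest groups (ties by position), 3 fullest and 3 emptiest windows (ties both named), and the peaks at the boundary; others are marked as chosen after their values were seen. Alternatives changed the boundary, the -log10 q, window, neighbour distance and definition of sharing.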

Additional observations from a re-analysis of the deposited data

How the results depend on the processing

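No paired analysis was possible because each line has 1 library. Of 88 recomputed values, 49 stayed within the interval of the reported value (for counts, within 1.5 times) and 39 moved outside it. Only the log2 read ratio could change sign, and it did not. Some directions against the rest of chromosome 4 turned, as given below. Where a value moved, the cause was not tested unless fewer peaks were counted by construction. Leaving out peaks of raised background was added after seeing the data; all other alternatives were planned.

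With a -log10 q of at least 5 in both lists the arm kept 600 and 603 peaks (zcrest 1, then zcrest 2). The median window of 1 Mb held 15 and 15, against 25 and 15 up to 25 Mb. The median width was 395 and 372 bp, and 29.5% and 33.7% had a neighbour within 5 kb. At 10 the arm kept 270 and 252 peaks, with a median of 6 and 6 per window against 13 and 6 up to 25 Mb. Their median width was 492 and 490.5 bp, and 21.5% and 32.9% had a neighbour within 5 kb. At that threshold 60% of the arm's peaks of zcrest 1 were more than 1 kb from zcrest 2, against 62.7% up to 25 Mb. The log2 read ratio of the arm at that threshold was 0.10. The share with a neighbour was 17.1% and 17.5% within 1 kb, 58.4% and 58.9% within 12500 bp, and 31.9% and 36.6% without raised background. The share of shared peaks fell to 29.97% and 30.6% where each peak had to be covered to 50%, and to 26.9% and 27.4% where summits had to be 100 bp or less apart. Up to 25 Mb these shares were 35.2% and 48.4%, and 31.7% and 43.7%. It was 43.8% and 33.1% with lists of equal length. In zcrest 2 it was 36.1% beyond 30 Mb, against 59.5% up to 30 Mb. Without raised background it was 35.9% in zcrest 2, against 59.3% up to 25 Mb. Peaks with none of the other line within 5 kb made up 48.0% and 44.6% of the arm, against 45.8% and 25.4% up to 25 Mb. Those with none within 1 kb made up 59.1% and 57.9% without raised background, against 53.8% and 35.2% up to 25 Mb. In zcrest 2 they made up 57.6% beyond 30 Mb, against 34.5% up to 30 Mb.

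Against the rest of chromosome 4, lower sharing kept its direction in 8 of 8 alternatives in zcrest 2 and in 6 of 8 in zcrest 1, where it turned with the boundary at 20 Mb (42.0% against 38.5%) and with peaks kept from a -log10 q of 10 upwards (37.4% against 36.6%). The higher share with no peak of the other line within 1 kb kept its direction in 6 of 6 alternatives in zcrest 2. In zcrest 1 it did so in 4 of 6. It turned there with the boundary at 20 Mb (52.9% against 57.7%) and from a -log10 q of 10 (60% against 62.7%). The higher density in zcrest 2 was equal to the rest at both -log10 q thresholds, and the narrower width in zcrest 1 turned at both. With few reads per summit, weak peaks missing from a list say little about accessibility.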
